A study of Mus musculus with 6 samples.

Results

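Homologous recombination and Fanconi anemia genes are described here as a list of 36 gene symbols. They were chosen by known function, with earlier results of these data known, and matched exactly to the symbols of the deposited expression table. All 36 were among its 17001 rows. RNA was sequenced from primary mouse preosteoblasts, the precursors of bone-forming osteoblasts, which were released by enzyme digestion from calvaria taken at 3 days of age and grown in α-MEM with 10% FBS. The 3 control libraries came from *Nell2* fx/fx mice, which carry floxed *Nell2* alleles and no Cre, and the 3 cKO libraries from Col1-cre; *Nell2* fx/fx mice, in which a fragment of the mouse *Col1a1* promoter drives Cre in cells of the osteoblast lineage, so that other cells of the culture keep *Nell2*. The study asked how loss of NELL2, a secreted glycoprotein, alters gene expression in these cells. The labels do not say whether libraries came from separate animals or litters, so the p-values measure the spread between these libraries, which may be partly technical.

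The values are FPKM, in which fragment numbers are scaled to transcript length and to the mapped total of the library, and sequencing depth is not known from them. Where the values of a gene are given without replicate numbers, they stand in the order of replicates 1, 2 and 3. Each library summed to between 573307 and 606428 FPKM. *Nell2* itself was at 3.17, 2.59 and 1.88 FPKM in the controls and at 5.64, 1.61 and 5.74 FPKM in the cKO libraries. Among the libraries labelled cKO, replicate 2 was below all controls and replicates 1 and 3 were above them. The study also checked the deletion at the RNA and protein level by assays that are not analysed here, and a value over the whole gene does not separate the floxed part. All 10 osteoblast lineage markers examined were at 1 FPKM or more in every library. So were 5 of the 6 cartilage markers, 5 of the 7 muscle markers and 4 of the 9 macrophage markers. Over the 6 libraries the cartilage marker *Col2a1* averaged 109 FPKM and the macrophage marker *Lyz2* 48.9 FPKM. Of the 6 endothelial markers, 4 were under 1 FPKM in every library and 0 reached it in all of them. Summed levels of osteoblast, macrophage, endothelial, muscle and cartilage markers overlapped between the groups, but single markers differed. Of the 10 osteoblast markers, 5 were lower at an unadjusted p under 0.05 and 0 higher. The median of their log2 fold changes was -0.33, and *Ibsp* (bone sialoprotein) was at 37.7% of the control mean. Of the 5 tested cartilage markers, 3 were higher and 0 lower, with a median of 0.45. At the same threshold 0 of the 7 tested macrophage, 1 tested endothelial and 5 tested muscle markers differed. The 6 epithelial markers summed to between 0.46 and 13.39 FPKM in control libraries and between 18.17 and 42.72 FPKM in cKO libraries, without overlap. The part of these markers in the results was not tested. The Y-linked *Ddx3y* was at 17.27, 17.33 and 15.65 FPKM in control replicate 3 and cKO replicates 1 and 3 and at 0 to 0.06 FPKM in the others.

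Homologous recombination repairs broken DNA and stalled replication forks by copying the sister chromatid. Broken ends are first cut back to single strands by nucleases, the BRCA1, PALB2 and BRCA2 proteins then prepare these strands for pairing, and paralog complexes and motor proteins help them invade the intact copy. The joined molecules are later taken apart by the BLM dissolvasome or cut by nucleases such as MUS81-EME1. The Fanconi anemia pathway feeds into these steps at DNA interstrand crosslinks: its core complex attaches ubiquitin to the FANCD2-FANCI pair, which directs incision and repair. Many of these genes are best known as tumour suppressor or bone marrow failure genes, and several are transcribed mainly in cells that are replicating their DNA.

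Of the 36 genes, 30 reached 1 FPKM in at least 3 libraries and were tested, and 6 (*Bard1*, *Palb2*, *Brca2*, *Brip1*, *Dna2* and *Rmi2*) did not. The test was limma's moderated test on log2(FPKM + 1), two-sided, with Benjamini-Hochberg adjustment over all 11590 tested rows, and each log2 fold change below is cKO minus control on that scale, where differences of weakly expressed genes come out too small. No listed gene passed an adjusted p of 0.05 (0 of 30), and no tested row did (0%). Their smallest adjusted p was 0.312. At an unadjusted p under 0.05, 6 of the 30 genes (20%) were lower in cKO libraries, against 7.76% of all tested rows, and 0 were higher, against 5.37%. The 6 were *Fignl1*, *Fanci*, *Exo1*, *Rad54l*, *Brca1* and *Blm*. The log2 fold change was below 0 for 23 of the 30 genes, against 55.8% of all tested rows, and the median was -0.11 against -0.02 over all rows. In 5 of the 30 (16.7%) all cKO values lay below all control values, against 11.8% of all rows, and in 0 they lay above, against 6.51%. The share without overlap was thus near that of the whole table. In bulk RNA, fewer cells of a type, cycling cells included, and less RNA per cell cannot be told apart.

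**Figure D1:**
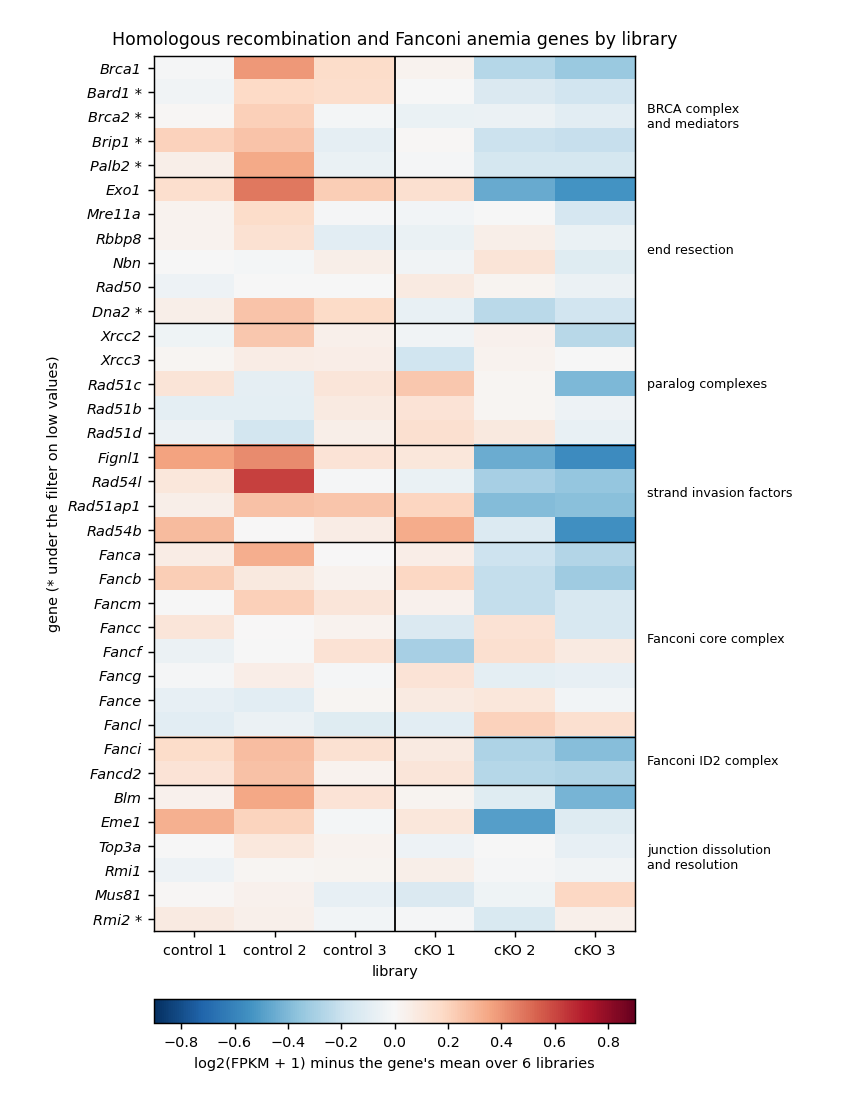
The 36 genes are drawn as rows, grouped by role, and the 6 libraries as columns, with color giving log2(FPKM + 1) minus the mean of the gene over the 6 libraries. *Fignl1*, *Exo1*, *Rad51ap1*, *Fanci* and *Fancd2* are blue in cKO replicates 2 and 3 and pale red in cKO replicate 1, whereas *Rad50*, *Nbn* and *Rmi1* stay pale in every library.

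Across libraries the listed genes did not follow the group labels evenly. In cKO replicate 3, 27 of the 36 genes lay below all control values, and in cKO replicate 2, 20 did, whereas in cKO replicate 1 it was 14 genes, with another 14 inside the control range and 8 above it. Over all tested rows the shares below all controls were 29.5%, 32.8% and 39.4% in cKO replicates 1, 2 and 3. Both cKO replicates 2 and 3 lay below all controls for 19 of the 36 genes, and for 12 of these 19 genes cKO replicate 1 did not. Among tested rows, the first pattern was found for 14 of the 30 genes (46.7%) against 24.3% of all rows, and the second for 9 (30%) against 12.5%. Control replicate 2 was the highest of the 6 libraries for 20 genes and cKO replicate 3 the lowest for 20 genes. Among tested rows these were 15 and 17 of the 30 genes (50% and 56.7%), against 24.5% and 25.9% of all rows.

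Promoter sequences were taken from RefSeq (GRCm38.p6) in windows of 300 bases, from 250 before to 50 after the annotated start, for the 26 listed genes in that table. *Rad50*, *Nbn*, *Rbbp8*, *Exo1*, *Rad51d*, *Xrcc2*, *Rad54b*, *Fancd2*, *Top3a* and *Rmi2* were not in it. The windows were searched on both strands for the E2F consensus of S-phase genes (TTTCCCGC, TTTGGCGC, TTTCGCGC or TTTGCCGC), for the CCAAT box (CCAAT) and for the cell cycle homology element (TTTGAA). Matches were counted whether or not they overlapped another motif. Shown first are *Fignl1*, *Rad54l*, *Fanci*, *Rad51ap1* and *Brca1*, the 5 tested genes in that table with the lowest log2 fold changes (for *Rad54l* the first of its windows), then *Fancg* and *Rad51c* (the second of its windows), which hold an E2F match. Capitals mark the E2F and CCAAT matches. The windows are chr11:11808913-11809212 on the minus strand for *Fignl1*, chr4:116123641-116123940 on the minus strand for *Rad54l*, chr6:126939538-126939837 on the minus strand for *Rad51ap1*, chr7:79392088-79392387 on the plus strand for *Fanci*, chr11:101551906-101552205 on the minus strand for *Brca1*, chr4:43010252-43010551 on the minus strand for *Fancg* and chr11:87404905-87405204 on the minus strand for *Rad51c*, all written 5′ to 3′ along the gene.
Fignl1: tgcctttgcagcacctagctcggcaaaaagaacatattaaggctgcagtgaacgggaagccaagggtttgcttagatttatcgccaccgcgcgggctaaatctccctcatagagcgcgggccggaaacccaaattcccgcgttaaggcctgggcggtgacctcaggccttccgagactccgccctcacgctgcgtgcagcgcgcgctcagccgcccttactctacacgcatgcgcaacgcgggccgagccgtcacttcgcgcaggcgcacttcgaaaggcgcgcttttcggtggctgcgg
Rad54l: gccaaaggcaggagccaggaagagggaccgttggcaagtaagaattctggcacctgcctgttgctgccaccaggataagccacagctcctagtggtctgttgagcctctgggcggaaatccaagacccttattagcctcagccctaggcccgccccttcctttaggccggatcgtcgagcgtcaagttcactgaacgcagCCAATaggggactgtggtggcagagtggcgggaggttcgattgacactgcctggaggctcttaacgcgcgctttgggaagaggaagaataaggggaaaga
Rad51ap1: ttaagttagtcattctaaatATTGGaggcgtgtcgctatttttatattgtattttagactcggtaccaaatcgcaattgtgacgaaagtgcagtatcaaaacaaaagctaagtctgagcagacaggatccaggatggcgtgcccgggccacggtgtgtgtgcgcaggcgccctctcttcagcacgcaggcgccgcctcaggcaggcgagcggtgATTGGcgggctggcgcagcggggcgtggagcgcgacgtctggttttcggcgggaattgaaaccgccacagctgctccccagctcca
Fanci: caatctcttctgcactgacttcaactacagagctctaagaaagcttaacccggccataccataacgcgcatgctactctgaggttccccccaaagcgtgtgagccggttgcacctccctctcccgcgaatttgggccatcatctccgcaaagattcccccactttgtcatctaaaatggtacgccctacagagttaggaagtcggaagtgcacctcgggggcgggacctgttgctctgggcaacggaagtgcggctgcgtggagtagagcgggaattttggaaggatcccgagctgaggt
Brca1: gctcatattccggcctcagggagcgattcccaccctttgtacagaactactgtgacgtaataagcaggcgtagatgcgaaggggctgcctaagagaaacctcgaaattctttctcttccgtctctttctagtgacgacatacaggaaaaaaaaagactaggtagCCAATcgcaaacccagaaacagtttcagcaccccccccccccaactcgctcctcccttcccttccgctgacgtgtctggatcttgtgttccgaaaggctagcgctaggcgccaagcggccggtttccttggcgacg
Fancg: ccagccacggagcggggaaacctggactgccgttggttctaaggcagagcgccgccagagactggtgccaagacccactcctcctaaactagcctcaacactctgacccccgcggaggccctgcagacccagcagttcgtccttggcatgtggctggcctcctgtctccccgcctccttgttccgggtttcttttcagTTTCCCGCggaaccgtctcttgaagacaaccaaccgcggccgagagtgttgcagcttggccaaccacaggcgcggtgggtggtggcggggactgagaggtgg
Rad51c: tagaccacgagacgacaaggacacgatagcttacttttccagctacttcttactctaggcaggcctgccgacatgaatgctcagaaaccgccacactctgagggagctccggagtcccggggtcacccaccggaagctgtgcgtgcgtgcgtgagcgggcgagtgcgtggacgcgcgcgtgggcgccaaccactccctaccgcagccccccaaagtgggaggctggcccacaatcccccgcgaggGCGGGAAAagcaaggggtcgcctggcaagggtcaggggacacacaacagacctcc

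*Rad51ap1* held 2 CCAAT matches, both on the reverse strand, the nearer beginning 36 bases before the start, *Brca1* held 1, beginning 86 bases before it, and *Rad54l* held 1, beginning 50 bases before it. The *Fancg* window held TTTCCCGC, beginning 52 bases before the start, and the second *Rad51c* window held GCGGGAAA, the reverse complement of the same motif, beginning 5 bases before it. *Fignl1* and *Fanci* held no match to either motif. Of the 26 genes, 5 (19.2%) had an E2F match in a window, against 2.6% of all genes in the table, and these were *Bard1*, *Brca2*, *Fancg*, *Rad51c* and *Rmi1*. The 3 of these 5 genes that were tested had log2 fold changes of -0.10 to 0.01. A CCAAT box was found for 16 of the 26 genes (61.5%), against 41.1% of all genes, and the cell cycle homology element for 3 (11.5%), against 20.2%. The shares of all genes cover the 27025 genes with a promoter window, whether or not they were expressed in these cells. Gene lists described below were searched alike. The CCAAT share was 64.1% of other homologous recombination and Fanconi genes, 66.7% of replication, 80% of mitosis and 33.3% of end joining genes. The E2F share was 7.69%, 50%, 5% and 8.33% in the same order. A match in such a window describes its letters only.

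The 4 genes grouped here as strand invasion factors were all tested, and their log2 fold changes were below 0 with a median of -0.43. The name of the group does not mean that each product promotes invasion, *Fignl1* included. *Fignl1* encodes an AAA ATPase that acts on recombination intermediates, and lies on chromosome 11 from 11787431 to 11808962 on the minus strand. *Fignl1* was at 5.04, 5.29 and 4.1 FPKM in the controls and 4.05, 2.45 and 2.17 in the cKO libraries. The groups did not overlap, but cKO replicate 1 was only just below control replicate 3, and cKO replicates 2 and 3 were far lower. The mean was 2.89 ± 1.01 FPKM (SD, n = 3) against 4.81 ± 0.627 FPKM in controls, which is 60.1% of the control mean, and the log2 fold change was -0.60 (standard error 0.18, adjusted p = 0.312 from limma). It had the smallest unadjusted p of the list in limma, 0.0127. As the list was chosen with earlier results of these data known, this rank gives no independent support.

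*Rad54l*, a motor protein that drives strand invasion and branch migration, had FPKM values of 1.9, 3.15 and 1.68 in the controls and 1.59, 1.2 and 1.13 in the cKO libraries. Control replicate 2 stood high, and the groups were separated by the small gap between 1.68 and 1.59. Its log2 fold change was -0.47 (standard error 0.17, adjusted p = 0.338). *Rad51ap1*, whose product stimulates strand invasion, was at 2.71, 3.3 and 3.25 FPKM in the controls and at 3.09, 1.73 and 1.75 FPKM in the cKO libraries. Replicate 1 of the cKO group was thus inside the control range and the other cKO libraries were well under it. The log2 fold change was -0.38 (standard error 0.16, adjusted p = 0.386). *Rad54b*, the relative of *Rad54l*, ranged from 0.32 to 1.44 FPKM with both extremes in the cKO group, and its log2 fold change of -0.23 (standard error 0.21) was about as large as its error.

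The FANCD2-FANCI pair, the substrate of the Fanconi core complex, had its lowest values in cKO replicates 2 and 3. *Fanci* was at 1.75, 1.98 and 1.7 FPKM in the controls and at 1.6, 1.02 and 0.88 FPKM in the cKO libraries. All cKO values were below all control values, with cKO replicate 1 close to the controls. The log2 fold change was -0.39 (standard error 0.13, adjusted p = 0.312), with a cKO mean at 64.5% of the control mean. *Fancd2* was at 1.41, 1.66 and 1.26 FPKM in the controls and at 1.39, 0.85 and 0.83 FPKM in the cKO libraries. Here cKO replicate 1 lay within the control range, and the log2 fold change was -0.28 (standard error 0.12, adjusted p = 0.386).

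**Figure D2:**
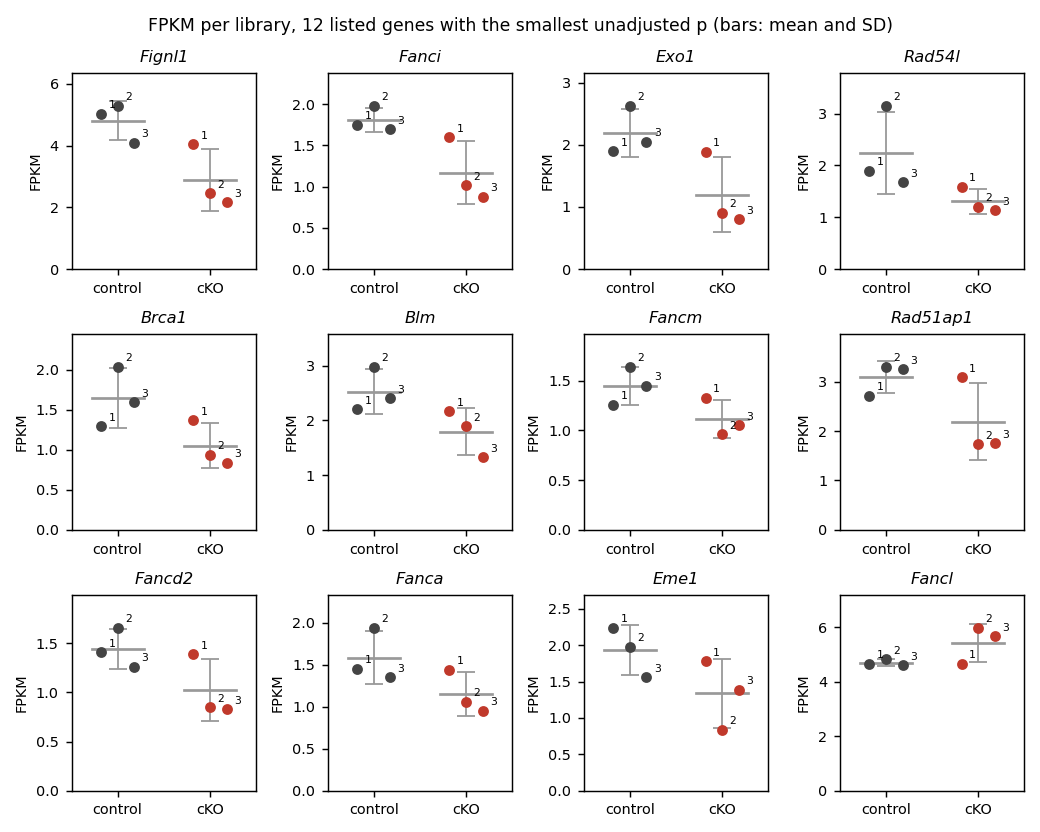
The FPKM of each library is shown for the 12 tested genes of the list with the smallest unadjusted p. Points are numbered by replicate, with the group mean and SD (n = 3) in gray. In 11 of the 12 panels the cKO mean is below the control mean, and *Fancl* is the exception, with cKO replicates 2 and 3 at 5.98 and 5.66 FPKM and cKO replicate 1 among the controls.

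Among the end resection genes, the late-acting nucleases had lower ratios of cKO to control than the early complex, a difference that was not tested. *Exo1*, the exonuclease that extends resection over long tracts, was at 1.9, 2.63 and 2.05 FPKM in the controls and at 1.89, 0.91 and 0.8 FPKM in the cKO libraries. The groups were separated by only 0.01 FPKM, between control replicate 1 and cKO replicate 1, while cKO replicates 2 and 3 were far below. The log2 fold change was -0.56 (standard error 0.19, adjusted p = 0.317), and the cKO mean was 54.7% of the control mean. *Dna2*, the nuclease-helicase of the parallel long-range route, was under the filter at 0.53, 0.76 and 0.66 FPKM in the controls and at 0.41, 0.25 and 0.31 FPKM in the cKO libraries. Its groups did not overlap, and the cKO mean was 49.7% of the control mean.

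*Mre11a*, *Rad50* and *Nbn* encode the MRN complex that senses the broken end, and *Rbbp8* encodes CtIP, which activates its nuclease. *Nbn* was at 10.2, 10.1 and 10.6 FPKM in the controls and at 9.96, 11.2 and 9.42 FPKM in the cKO libraries. The groups overlapped fully, with a log2 fold change of -0.02 (95% interval -0.19 to 0.16, adjusted p = 0.941). *Rad50*, *Mre11a* and *Rbbp8* had log2 fold changes of 0.04, -0.12 and -0.04, and their 95% intervals lay between -0.30 and 0.18.

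The genes of the BRCA complex and its mediators were expressed at low levels, and *Brca1* was the only member of this group to be tested. *Brca1*, the ubiquitin ligase subunit that promotes resection and recruits PALB2, was at 1.3, 2.04 and 1.6 FPKM in the controls and at 1.37, 0.94 and 0.84 FPKM in the cKO libraries. The groups overlapped through cKO replicate 1 and control replicate 1. Its log2 fold change was -0.37 (standard error 0.13, adjusted p = 0.338). *Bard1*, the obligate partner of BRCA1, was at 0.56, 0.81 and 0.78 FPKM in the controls and at 0.59, 0.46 and 0.42 FPKM in the cKO libraries. *Palb2*, the bridge between BRCA1 and BRCA2, was at 0.54, 0.88 and 0.43 FPKM in the controls and at 0.48, 0.33 and 0.33 FPKM in the cKO libraries. Both overlapped between the groups.

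*Brca2*, a mediator of strand pairing on single-stranded DNA, was at 0.56, 0.79 and 0.53 FPKM in the controls and at 0.48, 0.49 and 0.45 FPKM in the cKO libraries. All cKO values were below all controls, by a gap of 0.04 FPKM. *Brip1*, a helicase bound by BRCA1, was at 0.89, 0.96 and 0.55 FPKM in the controls and at 0.65, 0.43 and 0.42 FPKM in the cKO libraries, with overlap. The cKO means of these untested genes, with *Dna2* and *Rmi2*, were below the control means in 6 of 6 cases, at 49.7% to 75.5% of control. How much of such low values is counting error is unknown without depth.

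The paralog complexes, made of the products of *Rad51b*, *Rad51c*, *Rad51d*, *Xrcc2* and *Xrcc3*, act on the single strands during pairing and had log2 fold changes from -0.16 (*Xrcc2*) to 0.11 (*Rad51d*), and 0 of the 5 had an unadjusted p under 0.05. *Rad51d*, the most expressed, was at 5.15, 4.68 and 5.6 FPKM in the controls and at 6.04, 5.78 and 5.08 FPKM in the cKO libraries. The groups overlapped, with a 95% interval of the log2 fold change from -0.09 to 0.32. *Rad51b* had a log2 fold change of 0.06, *Xrcc3* of -0.10 and *Rad51c* of -0.10. *Rad51c* varied within the cKO group, at 1.96, 1.53 and 0.89 FPKM in replicates 1, 2 and 3.

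The Fanconi core complex was mixed, with 6 of its 8 genes below 0, a range of -0.26 to 0.17 in log2 fold change and 0 of 8 at an unadjusted p under 0.05. *Fanca* was at 1.45, 1.94 and 1.35 FPKM in the controls and at 1.44, 1.06 and 0.95 FPKM in the cKO libraries, with cKO replicate 1 inside the control range (log2 fold change -0.26, standard error 0.12, adjusted p = 0.399). *Fancm*, the translocase that anchors the complex to DNA, was at 1.26, 1.64 and 1.45 FPKM in the controls and at 1.33, 0.96 and 1.05 FPKM in the cKO libraries, again with cKO replicate 1 among the controls (log2 fold change -0.21, standard error 0.09, adjusted p = 0.385). The X-linked *Fancb* had a log2 fold change of -0.23.

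*Fancl*, the ubiquitin ligase subunit of the core complex, had the highest log2 fold change of the list. It was at 4.66, 4.83 and 4.61 FPKM in the controls and at 4.65, 5.98 and 5.66 FPKM in the cKO libraries. Only cKO replicates 2 and 3 were above the controls, and the log2 fold change was 0.17 (standard error 0.09, adjusted p = 0.456). *Fance*, the most expressed listed gene, which links the core complex to FANCD2, was at 10.68, 10.5 and 11.44 FPKM in the controls and at 12, 12.24 and 11.09 FPKM in the cKO libraries. Its groups overlapped through cKO replicate 3 (log2 fold change 0.11, standard error 0.07, adjusted p = 0.518). *Fancc*, *Fancf* and *Fancg* had log2 fold changes of -0.10, -0.05 and -0.02.

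**Figure D3:**
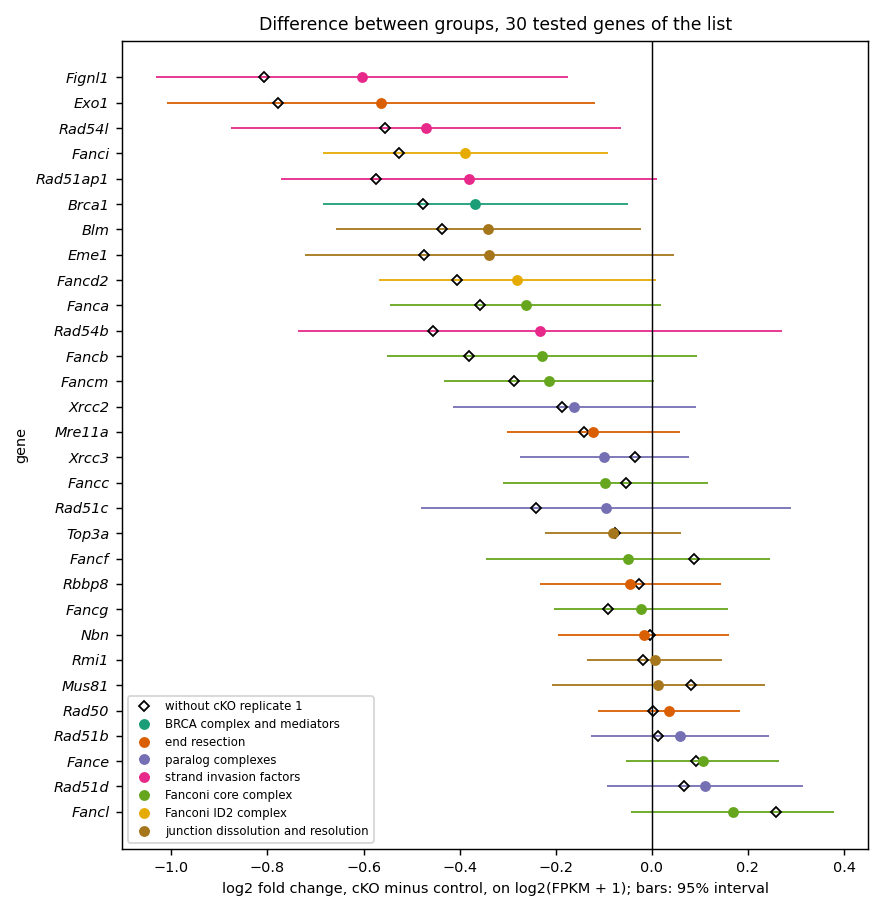
The log2 fold change (cKO minus control on log2(FPKM + 1)) of each of the 30 tested genes is a colored point with its 95% interval, colored by role, and the open diamond is the estimate without cKO replicate 1. *Fignl1* and *Exo1* lie farthest to the left at -0.60 and -0.56, with diamonds at -0.81 and -0.78, and *Fancl* lies farthest to the right at 0.17.

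Genes that take apart or cut joined molecules differed among themselves. *Blm*, the helicase of the dissolvasome, was at 2.2, 2.98 and 2.4 FPKM in the controls and at 2.17, 1.89 and 1.33 FPKM in the cKO libraries. The groups did not overlap, by a gap of 0.03 FPKM between control replicate 1 and cKO replicate 1, and the log2 fold change was -0.34 (standard error 0.13, adjusted p = 0.364). Its partners *Top3a* and *Rmi1* had log2 fold changes of -0.08 and 0.01, and the low *Rmi2* was at 0.27, 0.24 and 0.18 FPKM in the controls and at 0.19, 0.09 and 0.24 FPKM in the cKO libraries. The differences between these subunits were not tested.

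*Mus81* and *Eme1* encode the subunits of a structure-specific nuclease. *Mus81* was at 7.18, 7.33 and 6.71 FPKM in the controls and at 6.41, 6.88 and 8.24 FPKM in the cKO libraries, with full overlap (log2 fold change 0.01, 95% interval -0.21 to 0.23). *Eme1* was at 2.24, 1.98 and 1.56 FPKM in the controls and at 1.78, 0.84 and 1.39 FPKM in the cKO libraries. Its cKO replicates 2 and 3 lay below all controls and replicate 1 did not, and the log2 fold change was -0.34 (standard error 0.16, adjusted p = 0.419).

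The genes were also described by level, in a split at a mean of 3 FPKM that was chosen after the values were seen and was not tested. Of the 13 listed genes at or above it, 12 had log2 fold changes between -0.12 and 0.17, and the exception was *Fignl1*. Here 53.8% were below 0 with a median of -0.02, against 57.4% and -0.02 for all tested rows at that level. Of the 17 tested genes below it, 16 had a negative log2 fold change, against 47.5% of all tested rows at that level. The median of the 17 was -0.26, against 0.01 for those rows. *Brca1*, *Exo1*, *Fancb* and *Fancd2* among them were at 1 FPKM or more in all controls but under 1 FPKM in cKO replicates 2 and 3. Such genes pass the filter mainly through the group where they are high. With 1 FPKM required in all 6 libraries, 18 listed genes were left, with a median of -0.05 against -0.02 for all rows. The more expressed genes were mainly those of the MRN complex, *Rbbp8*, *Rad51d*, *Fance*, *Fancf*, *Fancg*, *Fancl*, *Top3a*, *Rmi1* and *Mus81*.

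Leaving out cKO replicate 1 changed the calls. With the other 5 libraries, 4 of the 30 genes (13.3%) had an adjusted p under 0.05 in limma, all with lower values in cKO, against 1.45% of all tested rows lower and 1.35% higher. These 4 genes were *Fignl1* (log2 fold change -0.81, standard error 0.11, adjusted p = 0.0321), *Exo1* (-0.78, standard error 0.11, adjusted p = 0.0337), *Fanci* (-0.53, standard error 0.08, adjusted p = 0.0353) and *Rad51ap1* (-0.57, standard error 0.09, adjusted p = 0.037). Of the lists described further below, 19 of 23 mitosis genes, 10 of 29 replication genes and 3 of 8 tested E2F and cell cycle regulators passed in the same fit. The counts were 2 of 41 for other homologous recombination and Fanconi genes, 1 of 12 for checkpoint genes and 0 of 15 for end joining genes. Without any other single library 0 of the 30 listed genes passed. The labels give no reason to leave that library out, so these values describe how the result rests on it.

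Other genes of homologous recombination and the Fanconi pathway that are not in the list of 36 were examined as a separate list, also chosen by function. Of 43 such genes in the table, 41 were tested and 0 had an adjusted p under 0.05. At an unadjusted p under 0.05, 9 were lower and 3 higher, against 7.76% and 5.37% of all tested rows. The log2 fold change was below 0 for 29 of the 41 (70.7%), against 55.8% of all tested rows, with a median of -0.08. In 12 of them all cKO values lay below all controls and in 2 above, against 11.8% and 6.51% of all rows. *Swi5*, a recombination mediator subunit and the most expressed of them, had a mean of 418 ± 15.1 FPKM (SD, n = 3) in control and 375 ± 27.8 FPKM in cKO libraries (log2 fold change -0.16, adjusted p = 0.414). *Cenps*, also known as a FANCM partner, had the smallest p of them and was at 4.97, 6.83 and 5.94 FPKM in the controls and at 4.44, 3.4 and 2.74 FPKM in the cKO libraries. All its cKO values were below all controls (log2 fold change -0.62, standard error 0.16, adjusted p = 0.312). The 3 genes higher at an unadjusted p under 0.05, named after their values were seen, were *Rad52*, *Abraxas1* and *Babam2*, with log2 fold changes of 0.28, 0.14 and 0.17.

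Genes of the alternative repair route and of the cell cycle were set beside the list. Over all tested rows 55.8% were below 0, and 7.76% were lower and 5.37% higher at an unadjusted p under 0.05. Of 15 non-homologous end joining genes, all tested, 8 were below 0, 0 had an unadjusted p under 0.05, and the median log2 fold change was -0.04. The highest of them, *Xrcc6* (Ku70), was at 17.1 ± 1.01 FPKM in control and 16.1 ± 1.002 FPKM in cKO libraries, and the one with the smallest p, *Xrcc4*, had a log2 fold change of 0.13 (adjusted p = 0.443). Of 12 DNA damage checkpoint genes, 11 were below 0 with a median of -0.05, and 2 had an unadjusted p under 0.05, *Topbp1* (log2 fold change -0.39, adjusted p = 0.312) and *Timeless* (-0.35). *Tipin* was the most expressed, at 17.1 FPKM in control and 14.3 FPKM in cKO libraries on average.

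Replication and mitosis genes had lower medians than the list. Of 29 replication genes, 28 were below 0 and 20 had an unadjusted p under 0.05, all lower in cKO libraries, with a median log2 fold change of -0.40. *Rfc5*, a clamp loader subunit, had the smallest p (log2 fold change -0.51, adjusted p = 0.312), and *Pcna*, the clamp and the most expressed, had a log2 fold change of -0.25. All 23 mitosis genes were below 0, 20 at an unadjusted p under 0.05, with a median of -0.58, among them *Bub1* at -0.59 and *Ube2c* at -0.46. Of 8 tested E2F and cell cycle regulators all were below 0 with a median of -0.40, *E2f8* at -0.50 and *E2f1* at -0.22. None of these genes had an adjusted p under 0.05 with the 6 libraries.

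The levels of these lists are compared library by library, and the list of 36 spanned a smaller range than mitosis or replication genes. The median of log2(FPKM + 1) after subtracting the mean of each gene was 0.02, 0.09 and 0.04 for the 30 tested genes in the control libraries and 0.05, -0.03 and -0.15 in the cKO libraries. For the mitosis genes this level came to 0.27, 0.48 and 0.14 in the controls and 0.16, -0.47 and -0.52 in the cKO libraries, and for the replication genes 0.15, 0.34 and 0.14 and then 0.01, -0.23 and -0.38. For end joining genes it stayed between -0.04 and 0.05. The level of cKO replicate 1 was inside the range of the control libraries for the list and for mitosis, and below it for replication. The part of the cell cycle genes in the values of the list was not tested.

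**Figure D4:**
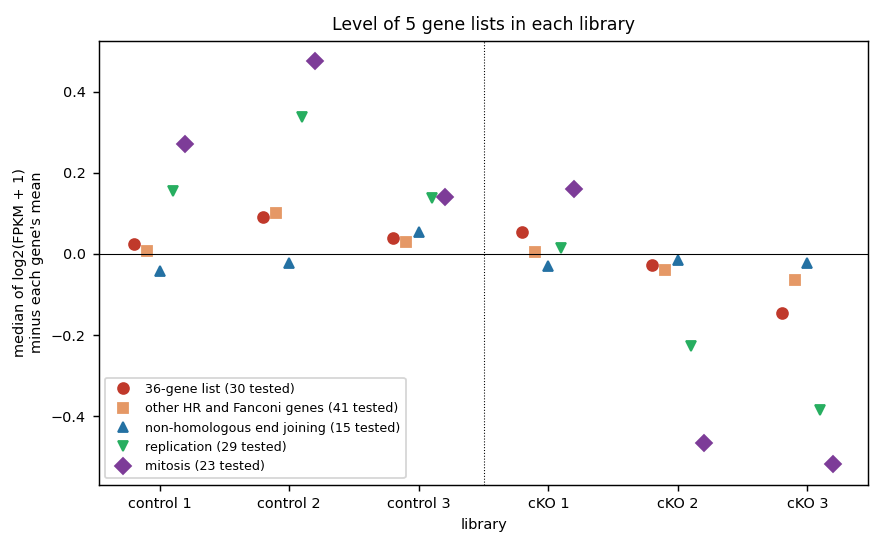
The level of 5 gene lists is plotted per library as the median, over the tested genes of a list, of log2(FPKM + 1) minus the mean of each gene over the 6 libraries. The mitosis genes span 0.48 to -0.52 and the 36-gene list 0.09 to -0.15, both with cKO replicates 2 and 3 lowest, and the end joining genes stay near 0.

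Y-linked expression was unequal between the groups, so the comparison was repeated within libraries of each kind. In libraries with Y-linked expression (1 control and 2 cKO) the median difference of the 30 genes was -0.12 on the log2(FPKM + 1) scale, with 23 lower, against -0.04 for all tested rows, and in libraries without it (2 control and 1 cKO) it was -0.085, with 20 lower, against 0.01 for all tested rows. *Fignl1* differed by -0.35 and -0.84 and *Exo1* by -0.42 and -0.76 in the 2 comparisons. Each has a group of 1 library, so neither gives a test.

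Neighbouring genes limit the reading of some values. In GENCODE M21 (GRCm38), 19 of the 36 genes share exon bases with another gene, and for 7 the largest overlap covers over 10% of their exon bases. These are *Rad54b*, with 35.8% shared with *Fsbp* on the same strand, *Fancc* with 16.4%, *Fanci* with 16.0% shared with *Polg*, *Rad54l* with 15.4% shared with *Lrrc41*, *Fancf* with 15.0%, *Fancl* with 13.7% and *Fanca* with 10.5%, the last 6 on the opposite strand. Whether the FPKM program used strand is not given in the sources used here, so reads of these pairs could be mixed. *Fignl1*, *Exo1*, *Rad51ap1*, *Brca1* and *Blm* share no exon bases with another gene. *Exo1* lies on chromosome 1 from 175880581 to 175913489 and *Rad51ap1* on chromosome 6 from 126923050 to 126939587.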

How the data were processed

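Poly(A) RNA from 6 libraries was sequenced as 150 bp paired-end reads. The authors mapped them with HISAT2 (GRCm38 in the submitters' processing notes, versions not stated) and deposited FPKM values for each gene symbol in each library, to 2 decimals, in a table named as raw counts. DESeq is named for normalization, a step FPKM values do not carry. The program for FPKM and the annotation release are not given in the sources used here. Because the values are not counts, log2(FPKM + 1) was compared between groups in limma 3.58.1 (R 4.3.3, functions lmFit and eBayes) and p-values were adjusted by Benjamini-Hochberg over the 11590 rows with at least 1 FPKM in at least 3 libraries. The script was tested on simulated data. Depth is unknown, so no counting error is given.

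The 36 genes and all gene lists were chosen with earlier results of these data known. Values in each library are given for the 12 tested genes with the smallest unadjusted p, the most expressed gene of each role, *Brca1*, *Brca2*, *Fancd2*, *Fignl1* and the genes under the filter, and for other lists the most expressed gene and the gene with the smallest p are named. The same replicate number does not mark a shared animal or day in the labels. Alternatives were the pseudocount, filter, variance trend, scaling, library weights, replicate block, Y-linked covariate and each library left out, always over the same 11590 rows unless the filter changed. Some results of the pathway are not reported here.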

Additional observations from a re-analysis of the deposited data

How the results depend on the processing

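With all 6 libraries, 0 listed genes and 0 of all rows had an adjusted p under 0.05 in limma. This held under every pseudocount, filter, trend, scaling, weighting and covariate tried, and with the replicate block. The block gave 6 listed genes at an unadjusted p under 0.05, as without it. Of all rows 12.6% had one with the block, against 13.1% without it. In the main setting 1521 rows had an unadjusted p under 0.05. Deviations of same-numbered libraries from their group means correlated at 0.03, -0.17 and 0.21, so the numbers were not taken as pairs. With library weights 13 listed genes (1 of them higher) had an unadjusted p under 0.05, against 6, and of all rows 19.6% did, against 13.1%. Requiring 1 FPKM in all 6 libraries left 18 listed genes, 12 of them lower and 3 without overlap. Such counts over all rows were not made under this filter, so they have no matching background. In the main setting 55.8% of all rows were lower. There 11.8% had all cKO values below all controls and 6.51% had them above. Of the 18 listed genes, 4 had an unadjusted p under 0.05, and of all rows under this filter 13.4% did. Their median log2 fold change was -0.0473 against -0.019 for all rows, where the main setting had -0.1105 against -0.0177. The difference of *Nbn* changed sign with the Y-linked covariate, at 0.0018.

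With a library left out, all rows called ranged from 0 to 324 (324 without cKO replicate 1, 2 without control replicate 3, 0 otherwise), listed genes called from 0 to 4, those at an unadjusted p under 0.05 from 1 (without cKO replicate 3) to 14 (without cKO replicate 1, 1 of them higher), as the share of all rows went from 7.35% to 21.2%. Listed genes without overlap ranged from 5 (16.7%, without control replicate 2) to 15 (50%, without cKO replicate 1), where 25.7% and 42% of all rows had none. Without control replicate 2 or cKO replicate 2 the unadjusted count was 2 of 30, against 8.02% and 8.31% of all rows. In these fits the share of listed genes was thus not above that of the whole table. The end joining median ranged from -0.0445 to 0.0574 (without control replicate 3), *Nbn* from -0.0789 to 0.0319 and *Mus81* from -0.0785 to 0.0807. The listed genes' median stayed negative, from -0.1643 to -0.0773, and the median of all rows was negative too, from -0.0289 to -0.0112. Low FPKM values carry an unknown counting error.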
